A study of Mus musculus with 8 samples.

Results

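Genes of the cell division cycle were examined in the livers of C57BL/6 mice given rilpivirine, an oral non-nucleoside inhibitor of HIV reverse transcriptase, and in control livers. The set held 37 genes named by symbol, covering the G1/S transition, DNA replication and mitosis, and a gene counted as measured where a probe set carried that symbol alone. By this rule 35 of the 37 were found among 22180 genes, 11 of them of the G1/S phases and 24 of the G2/M phases, whereas Ccnb1 and Ccne2 had no such probe set and were not analysed here. The 4 rilpivirine and 4 control samples, wild type and each measured on its own Affymetrix array, all carry the label of non-alcoholic fatty liver disease. The drug was given daily by mouth at a dose described only as equivalent to human use. The labels mention feeding for 3 months on a normal or a 60% fat diet but assign neither to a sample, and give no age. They do not say that replicates came from separate mice, and p-values therefore cover only the variation among these samples, part of which may be technical. Hepatocyte markers were present throughout: Alb measured 13.22 to 13.37 log2 on the 8 arrays.

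Passage through the cell cycle is driven by cyclins and their kinases. D and E cyclins open the way to S phase, the MCM helicase unwinds the DNA that PCNA-clamped polymerases copy, and cyclins A and B with CDK1 then bring the cell into mitosis, which ends when CDC20 directs the anaphase-promoting complex (APC/C) against the cyclins and securin. Genes of the first wave are typically switched on through E2F factors, and those of the second through MYB and FOXM1 on promoters that carry CCAAT boxes and a CHR element. In the adult liver most hepatocytes rest, many are polyploid, and transcripts of mitosis are scarce until cells divide.

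The promoters of 4 members below were searched for these elements. They are those of the G2/M genes Cdc20, with the smallest p, and Ccnb2, with the largest difference over all 8 arrays. The others are the helicase gene Mcm6, which held E2F letters but differed by only -0.03 log2, and cyclin E1, which held none of the elements. Each is the stretch of 250 bases before the start given in the RefSeq promoter table (GRCm38.p6), written 5′ to 3′ on the gene's strand. Capitals mark CCAAT, the CHR letters TTTGAA or TTCGAA, and the E2F core letters TTGGCGC or TTCGCGC, all searched on both strands. The stretches are chr4:118437344-118437593 (minus strand) for Cdc20, chr9:70421555-70421804 (minus strand) for Ccnb2, chr1:128359706-128359955 (minus strand) for Mcm6 and chr7:38107491-38107740 (minus strand) for Ccne1.
Cdc20: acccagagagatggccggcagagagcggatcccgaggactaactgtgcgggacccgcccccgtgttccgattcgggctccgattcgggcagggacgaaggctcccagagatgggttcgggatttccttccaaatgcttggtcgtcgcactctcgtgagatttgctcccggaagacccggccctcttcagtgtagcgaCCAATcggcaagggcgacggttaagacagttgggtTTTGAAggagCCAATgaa
Ccnb2: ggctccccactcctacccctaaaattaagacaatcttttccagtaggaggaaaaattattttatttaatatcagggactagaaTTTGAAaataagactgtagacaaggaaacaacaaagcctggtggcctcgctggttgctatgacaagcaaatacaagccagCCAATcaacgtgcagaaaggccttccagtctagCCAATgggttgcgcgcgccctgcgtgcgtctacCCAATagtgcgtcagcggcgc
Mcm6: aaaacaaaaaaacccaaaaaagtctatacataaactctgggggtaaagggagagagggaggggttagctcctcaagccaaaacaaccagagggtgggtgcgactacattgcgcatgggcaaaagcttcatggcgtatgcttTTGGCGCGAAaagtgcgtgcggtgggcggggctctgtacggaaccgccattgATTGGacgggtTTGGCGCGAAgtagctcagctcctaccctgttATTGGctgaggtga
Ccne1: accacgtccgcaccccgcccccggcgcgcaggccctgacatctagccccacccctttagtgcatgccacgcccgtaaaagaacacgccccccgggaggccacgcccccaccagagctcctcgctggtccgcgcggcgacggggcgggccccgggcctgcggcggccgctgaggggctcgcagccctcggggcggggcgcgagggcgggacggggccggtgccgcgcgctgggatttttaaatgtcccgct
In Cdc20 the TTTGAA letters lay between CCAAT boxes that began 53 and 8 bases before the start. Ccnb2 held 3 CCAAT boxes and 1 CHR match. In Mcm6 the 4 E2F matches formed 2 sites, each read on both strands with shared bases, and no searched letters occurred in the Ccne1 stretch.

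Of the measured members 28 had such a window, and the same windows of 27025 genes gave the reference shares. In 12 of the 28 the table's start lay inside the gene's annotated span, so that the window reached into it. A CCAAT box stood in 16 of 19 G2/M windows (84.2%) and 7 of 9 G1/S windows (77.8%), against 34.5% of all windows. A CHR match stood in 10 G2/M windows (52.6%) and 2 G1/S windows (22.2%), against 17.4% of all, and each of these 12 windows also held a CCAAT box. An E2F core match stood in 2 windows of each phase, against 3.23% of all. CCAAT and E2F matches can share bases, as they did in 103 of 374 windows with both, but in 0 of the 4 member windows with both. The shared elements are a description of the sequences: the arrays measured no binding.

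No member passed the test of limma over all genes. Values were log2 levels normalized by the authors, tested for 16635 genes whose mean over 8 arrays was at or above 2.72 log2. They included 33 of the 35 members. Over all genes 0.00% were called at a Benjamini-Hochberg adjusted p of 0.05, and 0.813 was the smallest adjusted p of any member. Before adjustment, 4 of 33 members had a limma p under 0.05, against 5.21% of all genes tested. The 3 higher ones were Cdc20, Cdkn3 and Mcm7 (2% of all genes were higher at that p) and the lower one was Ccne1 (3.21% of all genes). In bulk liver fewer cells of a kind and less RNA per cell cannot be told apart.

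Most G2/M members had a higher mean with rilpivirine and most G1/S members, like most genes tested, a lower one, which is described without a test. Of 22 tested G2/M members 20 had a higher mean with rilpivirine, against 43.1% of all genes tested, with a median difference of 0.18 log2 where all genes had -0.03. Of 11 G1/S members 4 were higher and 7 were lower, a share close to that of all genes tested (9461 of 16635 lower). The G1/S median was -0.08. With the 2 members below the filter, 22 of 24 measured G2/M members were higher and their median was 0.19. Without rilpivirine replicate 2 the G1/S count became 9 of 11 higher (median 0.10), and without rilpivirine replicate 4 the G2/M count became 15 of 22 (median 0.08).

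**Figure D1:**
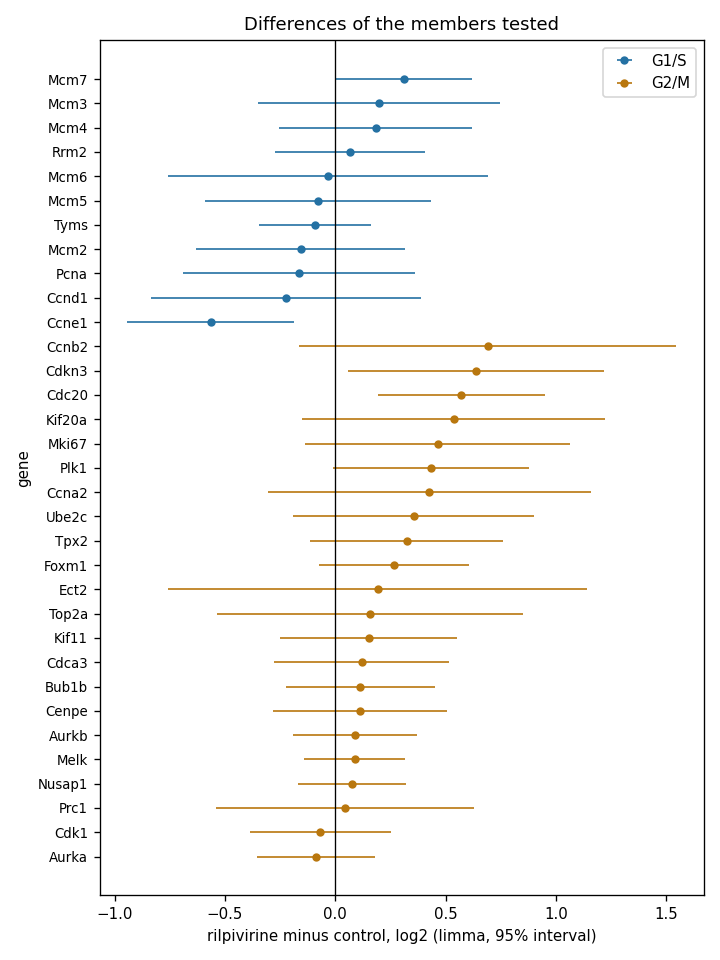
Difference between rilpivirine and control means on the log2 scale (x axis) for the 33 tested members (y axis), by phase; points are differences and bars their 95% confidence intervals from limma, with no adjustment. Of the G2/M points 20 of 22 lie right of 0, and the intervals of Cdc20, Cdkn3, Mcm7 and Ccne1 do not include 0.

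Transcripts of cyclin E1 measured lower on all 4 rilpivirine arrays than on any control. Ccne1 (chr7:38097984-38107490, GRCm38.p6), whose product activates CDK2 at entry into S phase, measured 4.30, 4.03, 4.06 and 4.44 log2 in rilpivirine replicates 1 to 4. In control replicates 1 to 4 it measured 5.19, 4.86, 4.45 and 4.59. All rilpivirine values lay below all control values, though the highest of the first (4.44) nearly met the lowest of the second (4.45). Means were 4.21 ± 0.20 and 4.77 ± 0.32 (SD, n = 4 each), a 1.48-fold lower level with a log2 difference of -0.57 ± 0.17 (SE; limma, unadjusted p = 0.00707, adjusted p = 0.813). The groups failed to overlap downwards in 1.73% of all genes. The difference was -0.51 without rilpivirine replicate 2 and -0.64 without rilpivirine replicate 4.

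Ccnd1, the D cyclin that links growth signals to CDK4 and CDK6, differed by -0.22 ± 0.28 log2 (SE). It measured 9.01, 8.05, 8.94 and 9.76 with rilpivirine and 9.15, 9.14, 9.26 and 9.11 in controls, in replicate order. The controls were close together (SD 0.06), while the rilpivirine group (SD 0.70) held both the lowest and the highest of the 8 values. Without rilpivirine replicate 2 the difference was 0.07, and without rilpivirine replicate 4 it was -0.50 (limma unadjusted p = 0.0397, adjusted p = 0.543).

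The 6 subunits of the MCM2-7 helicase, which is loaded at origins in G1, split evenly, 3 higher and 3 lower, with differences of -0.16 (Mcm2) to 0.31 (Mcm7). Mcm7 (chr5:138164583-138172111) measured 5.67, 5.20, 5.33 and 5.58 log2 with rilpivirine and 5.01, 5.05, 5.11 and 5.37 in controls. Only control replicate 4 reached into the rilpivirine range. The difference was 0.31 ± 0.14 (SE; limma unadjusted p = 0.0498, adjusted p = 0.890). Mcm6, the subunit with the E2F matches shown above, measured 6.38, 4.89, 5.99 and 6.45 with rilpivirine and 5.89, 5.37, 6.16 and 6.41 in controls, and its difference was -0.03 ± 0.33. Its direction turned after a further quantile normalization. Mcm2 measured 4.44 in rilpivirine replicate 2 and 5.34 to 5.47 in the rest of that group. Mcm3, Mcm4 and Mcm5 differed by 0.20, 0.18 and -0.08. Rilpivirine replicate 2 was the lowest of the 8 arrays in 5 of the 6 subunits, and without it all 6 were higher with rilpivirine, with a median of 0.35, of which Mcm3, Mcm4 and Mcm7 had an unadjusted p under 0.05 (adjusted p of 0.999 each in limma).

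The replication clamp Pcna and the nucleotide enzymes Rrm2, a subunit of ribonucleotide reductase, and Tyms, thymidylate synthase, had differences between -0.17 and 0.07 log2. Pcna measured 7.04, 6.28, 7.44 and 7.46 with rilpivirine against 6.95 to 7.41 in controls, a difference of -0.17 ± 0.24 (SE) that was 0.09 without rilpivirine replicate 2. Rrm2 differed by 0.07 (95% confidence interval -0.27 to 0.40) and by 0.14 in a second, dim probe set. Tyms differed by -0.09 (-0.35 to 0.16). A p above the threshold does not show that these levels were equal.

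Among the tested G2/M members only Cdc20 had groups that did not overlap. Cdc20 (chr4:118432901-118437343), the activator of the APC/C at anaphase, measured 4.55, 4.08, 4.14 and 4.88 log2 with rilpivirine and 3.86, 3.80, 3.88 and 3.82 in controls. All 4 rilpivirine values lay above all controls, as they did in 1.30% of all genes. Means were 4.41 ± 0.38 and 3.84 ± 0.04 (SD, n = 4 each), a 1.49-fold higher level and a log2 difference of 0.57 ± 0.17 (SE; limma unadjusted p = 0.00685, adjusted p = 0.813). The difference was 0.41 without rilpivirine replicate 4 and 0.50 without replicates 2 and 4 together.

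Cdkn3 (chr14:46760461-46771530), a phosphatase of CDK1 and CDK2, measured 3.16, 2.80, 3.28 and 4.31 log2 with rilpivirine and 2.94, 2.67, 2.66 and 2.75 in controls. Rilpivirine replicate 4 lay far above the other 7 arrays, and replicate 2 fell within the control range. The difference was 0.64 ± 0.26 (SE; limma unadjusted p = 0.0345, adjusted p = 0.890), and 0.33 without replicate 4. The control mean of 2.75 was close to the filter value of 2.72.

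Ccnb2, a B-type cyclin of CDK1, had the largest difference of means among the members over all 8 arrays, 0.69 ± 0.39 (SE), a 1.62-fold higher level, and an adjusted p of 0.890 in limma. It measured 4.36, 3.66, 4.63 and 5.92 with rilpivirine and 4.32, 3.997, 4.02 and 3.46 in controls. The groups overlapped, with rilpivirine replicate 4 above the rest. Its difference was 0.26 without that array, where those of Cdc20 (0.41) and Cdkn3 (0.33) were larger, and 1.02 without rilpivirine replicate 2. Ccna2, the cyclin of S and G2 phases, measured 4.06, 3.14, 4.17 and 5.19 with rilpivirine against 3.57 to 3.91 in controls, so that its lowest and its highest value were both in the rilpivirine group. Their kinase Cdk1 differed by -0.07 (95% confidence interval -0.39 to 0.25), at 4.39 to 4.88 with rilpivirine and 4.50 to 5.003 in controls.

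**Figure D2:**
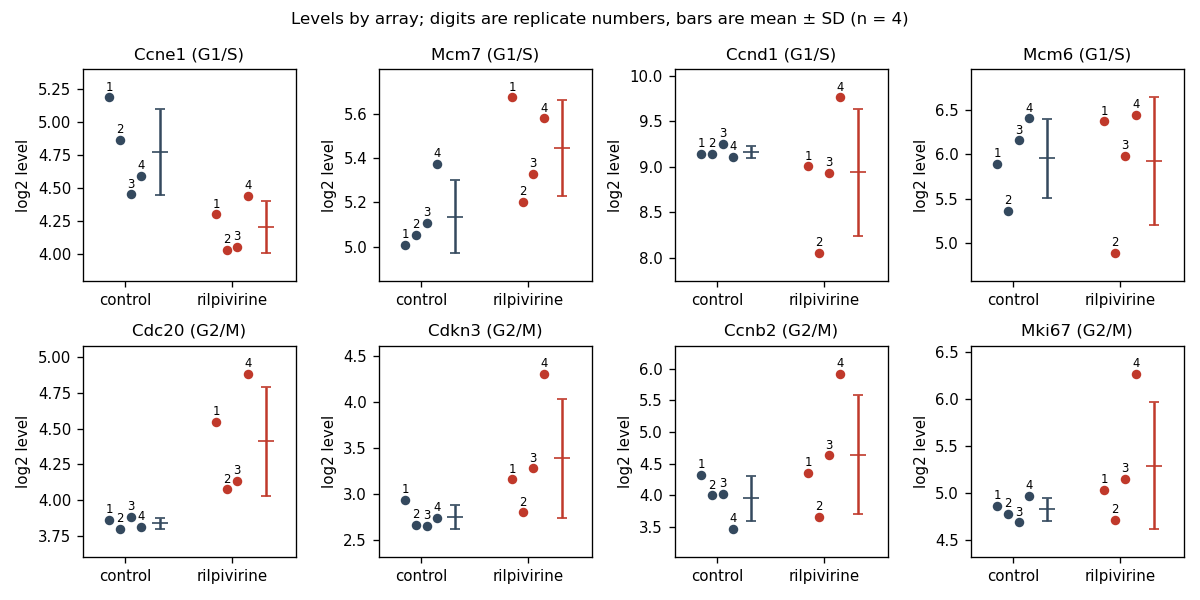
Log2 level (y axis, scaled by gene) of 4 G1/S and 4 G2/M members on each array, by group; points are arrays with their replicate numbers, and the bar beside them is the mean ± SD (n = 4). The rilpivirine and control points do not overlap in Ccne1 and Cdc20, and rilpivirine replicate 4 is the highest of the 8 in Cdkn3, Ccnb2 and Mki67.

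The kinases and regulators of mitosis differed by -0.09 to 0.43 log2. Plk1, the Polo-like kinase of mitotic entry, measured 4.24, 4.29, 3.94 and 4.96 with rilpivirine and 4.06, 4.11, 3.67 and 3.86 in controls, a difference of 0.43 ± 0.20 (SE; limma unadjusted p = 0.0553) that was 0.23 without rilpivirine replicate 4 (unadjusted p = 0.156). The Aurora kinases, of centrosome and centromere, differed by -0.09 (Aurka) and 0.09 (Aurkb), within the spread of the samples. Foxm1, the transcription factor of G2/M genes, differed by 0.27 ± 0.15 (SE), at 3.03 to 3.39 with rilpivirine and 2.58 to 3.25 in controls, and its kinase partner Melk by 0.09. Birc5, the survivin of the chromosomal passenger complex, lay below the filter, at 2.56 to 2.83 with rilpivirine and 2.46 to 2.61 in controls. Bub1, a kinase of the spindle checkpoint, was also below it, at 2.23 to 2.57 against 1.89 to 2.41. Its partner Bub1b differed by 0.11, Ube2c, the ubiquitin-conjugating enzyme of the APC/C, by 0.35 (0.08 without rilpivirine replicate 4) and Cdca3 by 0.12.

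All 7 genes of the spindle, kinetochore and cytokinesis had a higher mean with rilpivirine, by 0.05 (Prc1) to 0.54 (Kif20a) log2, and 0 had an unadjusted p under 0.05. Kif20a, a motor of the central spindle, measured 4.21, 3.17, 3.78 and 5.05 with rilpivirine and 3.43 to 3.63 in controls. In replicates 1, 3 and 4 its values were above every control, and in replicate 2 below them all. Tpx2, which activates Aurora A on spindles, measured 4.93 in rilpivirine replicate 4 and 3.94 to 4.10 in the rest of its group, against 3.88 to 3.98 in controls. Ect2, the exchange factor of the cleavage furrow, spread from 3.30 in rilpivirine replicate 2 to 5.86 in replicate 4, around controls at 3.87 to 4.86. Without replicate 4 the differences of Kif11, Cenpe, Prc1 and Ect2 turned negative (-0.02, -0.02, -0.27 and -0.23), while those of Kif20a and Tpx2 were 0.20 and 0.09. Nusap1 differed by 0.08 ± 0.11 (SE).

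The proliferation marker Mki67, whose protein coats mitotic chromosomes, measured 5.04, 4.72, 5.15 and 6.27 with rilpivirine and 4.87, 4.78, 4.69 and 4.97 in controls. Its difference of 0.47 ± 0.27 (SE) was 0.14 without replicate 4. Top2a, the topoisomerase that untangles chromosomes, measured 3.51, 2.99, 3.92 and 4.85 against 3.50 to 3.92, and its difference of 0.16 became -0.19 without replicate 4. In both genes 1 array, rilpivirine replicate 4, lay above the other 7.

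Most members, like most genes tested, varied more among the rilpivirine arrays than among the controls. Rilpivirine replicate 4 was the highest of the 8 arrays in 14 of 22 tested G2/M members and in 4 of 11 G1/S members, against 16.6% of all genes. Rilpivirine replicate 2 was the lowest array in 9 of 11 G1/S and 7 of 22 G2/M members, against 30.2% of all genes. The SD was larger with rilpivirine than in controls in 18 of 22 G2/M and 8 of 11 G1/S members, against 69.8% of all genes. The median ratio of these SDs was 3.12 in G2/M, 1.69 in G1/S and 1.41 in all genes. Without rilpivirine replicate 4 the G2/M ratio was 1.89 (all genes 1.33). Without replicate 2 it was 3.03, and that of G1/S fell to 0.60 (all genes 1.16).

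**Figure D3:**
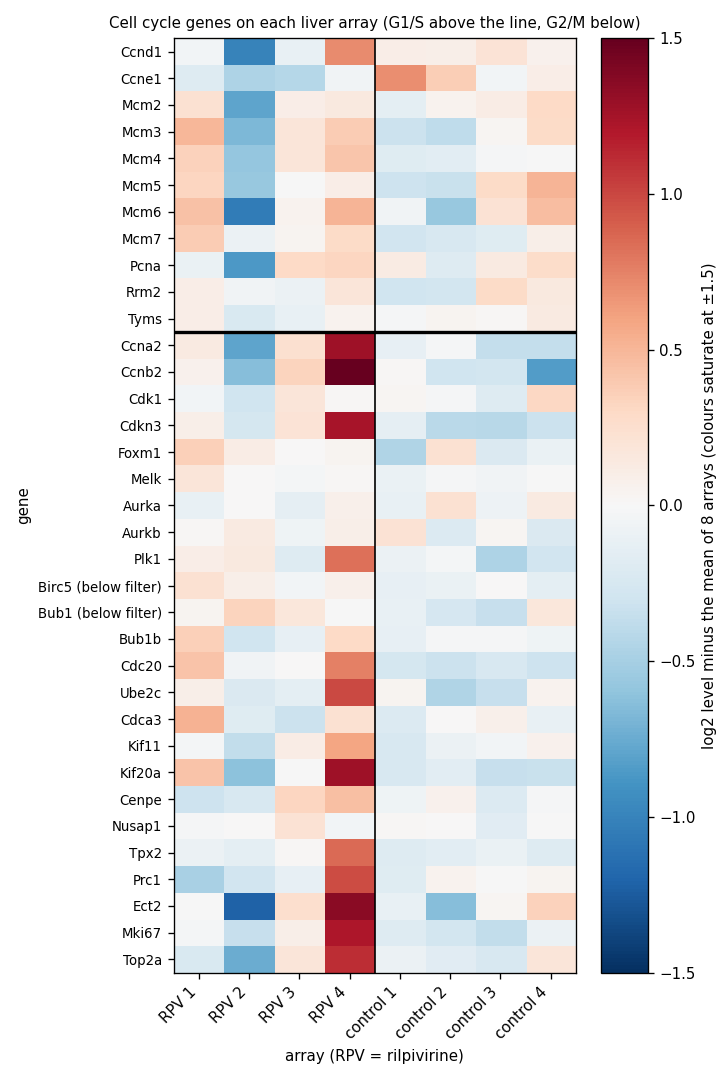
Log2 level of the 35 measured members (rows, G1/S above the thick line and G2/M below) on the 8 arrays (columns, rilpivirine left of the thin line), as deviation from the gene's mean over 8 arrays; red is higher and blue lower. Rilpivirine replicate 4 is the highest array in 14 of 22 tested G2/M members, and replicate 2 the lowest in 9 of 11 G1/S members.

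Averaged over the 22 G2/M members, as deviations from the mean of 8 arrays, the level was 0.06, -0.29, 0.05 and 0.69 log2 in rilpivirine replicates 1 to 4. In controls it was -0.12, -0.12, -0.18 and -0.10 (SD 0.04). Rilpivirine replicates 1, 3 and 4 lay above every control and replicate 2 below them all. The 11 G1/S members averaged 0.19, -0.58, 0.01 and 0.28 with rilpivirine and -0.06, -0.14, 0.10 and 0.21 in controls, with full overlap. The G2/M level minus the G1/S level was -0.13, 0.29, 0.04 and 0.42 with rilpivirine and -0.05, 0.02, -0.28 and -0.31 in controls. Group means of this contrast differed by 0.31 log2 and the groups overlapped. It was 0.22 without rilpivirine replicate 4 and 0.11 without replicates 2 and 4 together, which was chosen after seeing the data.

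**Figure D4:**
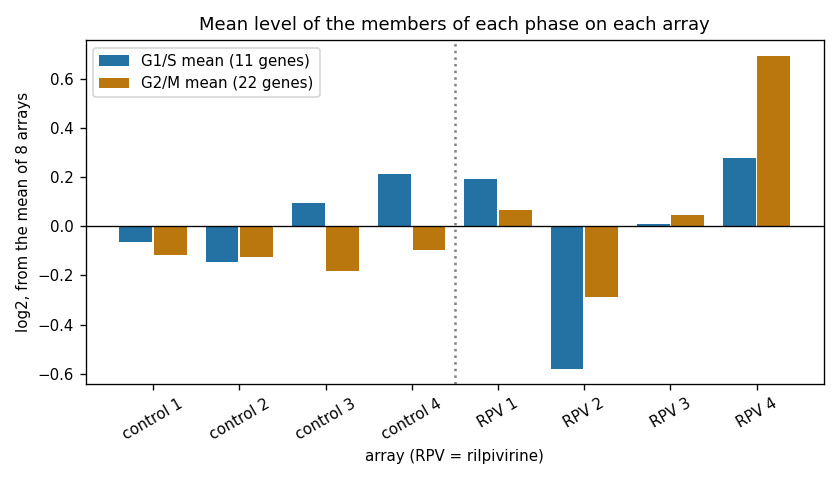
Mean level of the 11 G1/S and 22 G2/M members tested (y axis, log2, as deviation from the mean of 8 arrays) on each array (x axis, controls left of the dotted line). Rilpivirine replicate 4 reaches 0.69 in G2/M, and replicate 2 falls to -0.58 in G1/S and -0.29 in G2/M.

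Leaving out rilpivirine replicate 2 or 4 moved many of the counts of members above, though not all. Without replicate 2, 30 of 33 members were higher (46.8% of all genes), and 10 had an unadjusted p under 0.05 (4.21% of all genes then): Ccna2, Ccnb2, Ccne1, Cdc20, Cdkn3, Kif20a, Mcm3, Mcm4, Mcm7 and Mki67. Without replicate 4, 19 of 33 were higher (41.8% of all genes) and 4 had such a p (9.16% of all genes). Without both, 28 of 33 were higher (43.4% of all genes) and 8 had such a p (4.38% of all genes). Adjusted over all genes 0 members passed in each case. Replicate 2 also stood apart over all genes, with a mean correlation of 0.976 to the other arrays against 0.985 to 0.988 for these. Its small nucleolar RNAs, at 0.49 log2 over the 8-array mean, were the highest, though those of control replicate 1 lay further from that mean, at -0.60.

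**Figure D5:**
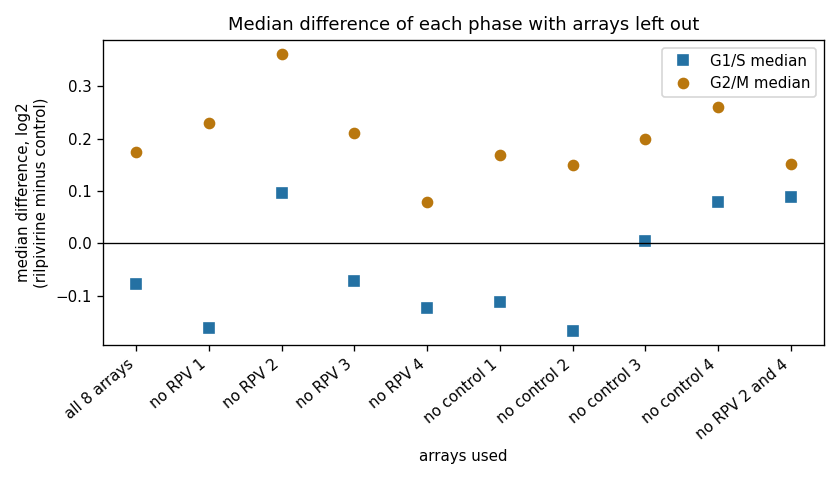
Median log2 difference between rilpivirine and control (y axis) over the 11 G1/S and the 22 G2/M members tested, with all arrays and with the named arrays left out (x axis). The G2/M median stays above 0, from 0.08 to 0.36, and the G1/S median runs from -0.17 to 0.10.

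Markers of other cells that may divide in liver gave the following levels on the same scale, and their part in the results was not tested. On rilpivirine replicate 4, where G2/M genes were highest, several lists were at their lowest of the rilpivirine group. They were Kupffer cell (-0.37), T cell (-0.23), hepatocyte (-0.19), sinusoidal endothelial (-0.16), neutrophil (-0.14) and B cell markers (-0.11). Stellate cell markers (0.13) were at their highest of that group there. Kupffer cell markers ranged from -0.37 to 0.20 with rilpivirine and from -0.12 to 0.28 in controls (1 of 8 higher, median -0.12). Sinusoidal endothelial markers were at 0.25, 0.19 and 0.18 on rilpivirine replicates 1 to 3 and at -0.29 to 0.04 in controls. Of these 8 markers 7 were higher (median 0.19), and Stab2, Kdr and Oit3 had an unadjusted p under 0.05 (adjusted p of 0.890 each in limma). In the other lists such a p was found for Cd79a of B cells, which was higher. It was also found for Pck1 of hepatocytes, Trem2 and Ms4a7 of macrophages and 1 Kupffer cell marker, which were lower (adjusted p of 0.855 or above in limma). Monocyte and lipid-associated macrophage markers were at 0.37 on rilpivirine replicate 4, against -0.50 to -0.19 on the other rilpivirine arrays. In controls they were at -0.02 to 0.50, and 0 of 7 tested members had a higher mean with rilpivirine. T cell markers ranged from -0.23 to 0.27 with rilpivirine and from -0.09 to 0.08 in controls (3 of 7 higher), B cell markers from -0.11 to 0.07 and from -0.03 to 0.08 (3 of 5 higher). Neutrophil markers ranged from -0.14 to 0.31 and from -0.10 to -0.01 (5 of 5 tested higher, but 6 of 8 measured). Erythroid markers ranged from -0.14 to -0.04 and from -0.12 to 0.21 (0 of 4 higher). Stellate cell markers ranged from -0.09 to 0.13 and from -0.06 to 0.06 (2 of 8 higher), cholangiocyte markers from -0.13 to 0.16 and from -0.10 to 0.01 (3 of 5 higher), and hepatocyte markers from -0.19 to 0.09 and from -0.05 to 0.22 (3 of 8 higher). The defining markers Ms4a1 of B cells, S100a8, S100a9 and Camp of neutrophils and Ccr2 of monocytes lay below the filter. S100a8 and S100a9 were the neutrophil markers with a lower mean with rilpivirine (-0.07 and -0.03).

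A further 100 measured genes of the cell cycle, of 108 listed, put the members beside their pathway. Of 96 tested 38 were higher and 58 lower with rilpivirine (median -0.05), 0 passed the adjusted threshold in limma, and 5 had an unadjusted p under 0.05, against 5.21% of all genes. In the kinetochore, spindle and condensin group 20 of 26 were higher (median 0.10), whereas in origin licensing and fork genes 5 of 21 were higher (median -0.07). Without rilpivirine replicate 2, 16 of the 21 origin and fork genes were higher (median 0.02), as were 65 of the 96. Without rilpivirine replicate 4, 14 of the 26 kinetochore, spindle and condensin genes were higher (median 0.03). Ndc80, which ties kinetochores to microtubules, had a difference of 0.50 ± 0.20 (SE), Nek2, a centrosome kinase, 0.37 ± 0.17 and Anln, the anillin of the contractile ring, 0.31 ± 0.15. Gins3, Gins4 and Pola2, of the replication fork, differed by 0.13, -0.21 and 0.16.

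The largest difference in the pathway was in Wee1, the kinase that holds CDK1 inactive before mitosis. It measured 6.20, 4.58, 5.51 and 5.68 log2 with rilpivirine and 6.69, 6.57, 6.62 and 6.57 in controls. The groups did not overlap, as they did not in this direction in 1.73% of all genes. The difference was -1.12 ± 0.27 (SE; limma unadjusted p = 0.00167, adjusted p = 0.773), or -0.82 without replicate 2. Wee1 is also a clock-driven gene, and 12 clock genes were measured. Of these 4 were higher and 8 lower with rilpivirine, with differences from -0.91 to 0.69 log2. Their mean level, which joins genes that differed in opposite directions, was -0.33 to 0.05 with rilpivirine and 0.08 to 0.22 in controls, without overlap. With that mean level as a covariate the Wee1 difference was -0.49 (limma unadjusted p = 0.217). Because the clock level did not overlap between the groups, the clock and the drug cannot be told apart in that fit. Cks2, a small subunit of CDK complexes, measured 6.48, 5.90, 6.06 and 6.40 with rilpivirine and 6.55 to 6.78 in controls. Its difference was -0.46 ± 0.15 (SE; limma unadjusted p = 0.00927, adjusted p = 0.839). Ccnd3, another D cyclin, was 5.51 to 5.79 against 5.82 to 5.99. Tk1, the thymidine kinase of S phase, differed by -0.57 ± 0.19 (SE; limma unadjusted p = 0.0112, adjusted p = 0.849), with 5.64 to 6.41 against 6.37 to 6.86. With the clock level as a covariate Tk1 differed by -0.13 (limma unadjusted p = 0.620), where again clock and drug cannot be told apart. All 5 tested genes of nucleotide supply were lower, Dut by 0.19 and Rrm2b by 0.05 among them.

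Of E2F, RB and MYB-MuvB factors 6 of 18 were higher (median -0.09). Mybl2, the MYB protein that works with FOXM1 on G2/M promoters, measured 3.55, 3.37, 3.38 and 3.27 log2 with rilpivirine and 3.08, 3.14, 3.23 and 3.02 in controls. The groups did not overlap, as they did not in this direction in 1.30% of all genes. The difference was 0.27 ± 0.11 (SE, limma unadjusted p = 0.0310, adjusted p = 0.890). With the mean of all its probe sets the Mybl2 difference was 0.21 (limma unadjusted p = 0.123). E2f7 and E2f8, the atypical E2F repressors that shape polyploidy in hepatocytes, differed by 0.12 and -0.07, E2f2 by 0.25 and Tfdp2 by -0.45 ± 0.22 (SE). By the CHR letters in their promoters, the 10 G2/M members with a match had a median difference of 0.27 (9 higher). The 9 without one, which include Birc5 and Bub1 below the filter, had 0.11 (8 higher). Without rilpivirine replicate 4 the order of the medians reversed. The middle values were then 0.03 (Bub1b) and 0.08 (Ube2c) with a match and 0.09 (Melk) without one. The comparison is given as a description without a test.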

How the data were processed

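The deposited values are log2 levels of 41345 probe sets on 8 one-colour Affymetrix arrays of 300 ng liver RNA each, which the authors made with RMA (background correction, quantile normalization and summary of probes) and tested with limma. Both names come from the labels' processing notes; versions, batches and each sample's diet were not given in the sources used here. The method evens out total signal, so a change in total mRNA cannot be seen. Values of different probe sets are not compared in level.

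Probe sets with 1 gene symbol in the platform annotation (23521; 1814 had several and 16010 none listed) were used, and where a symbol had several the brightest by its mean of 8 arrays was kept (22180 genes). Genes under the 25th percentile of the mean (2.72 log2; 5545 genes) were left out. In R 4.3.3, limma 3.58.1 (lmFit, eBayes) gave two-sided tests of the group term alone, adjusted by Benjamini-Hochberg over 16635 genes. The fit was tested on simulated data. Lists are described by counts and medians without a list test. Named genes were all members, the 3 genes of each role of the wider pathway list with the smallest p, and 5 genes measured of a fixed few. The members and lists were chosen with earlier results of these data known. Replicate numbers did not pair the samples. Promoters came from RefSeq tables (GRCm38.p6). Figures used matplotlib 3.10.9 in Python 3.11.15. The number of arrays limits the precision.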

Additional observations from a re-analysis of the deposited data

Results flagged for a closer look

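In 72 groups of 4 values (33 members and 3 mean levels, in each group of samples), 4 held a sample far from the other 3 by Dixon's test, and chance alone flags about 1 in 20. In Mcm2 it was rilpivirine replicate 2, at 4.44 log2, where the group's other values were 5.34 to 5.47. Tpx2 measured 4.93 in rilpivirine replicate 4, against 3.94 to 4.10. Nusap1 measured 3.58 in rilpivirine replicate 3, against 3.33 to 3.37, and 3.21 in control replicate 3, against 3.37 to 3.38.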

How the results depend on the processing

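The number of members past an adjusted p of 0.05 in limma was 0 under every alternative run, as was that of the other cell cycle genes. The 4 members at an unadjusted p under 0.05 became 9 with array weights, 2 of 22 tested with a filter at the 50th percentile, 11 with a covariate for small nucleolar RNAs, 13 without rilpivirine replicates 1 and 2 together and 8 without replicates 2 and 4 together (a choice made after seeing the data); with 1 sample left out they ran from 2 (without control replicate 3) to 10 (without rilpivirine replicate 2). The 5 other cell cycle genes became 3 of 69 tested with the filter at the 50th percentile, 8 with the small nucleolar RNA covariate and 0 with the clock covariate, and 4 to 10 with 1 sample left out (10 without rilpivirine replicate 4, 8 without rilpivirine replicate 3). The G1/S median of -0.08 ran from -0.17 to 0.10 with 1 sample left out, being above 0 without rilpivirine replicate 2 (0.10), control replicate 3 (0.005) or control replicate 4 (0.08), and was 0.07 with the small nucleolar RNA covariate and 0.43 with the clock covariate. The G2/M median of 0.18 ran from 0.08 to 0.36, and was 0.35 with the filter at the 50th percentile, 0.37 with the small nucleolar RNA covariate and 0.49 without rilpivirine replicates 1 and 2 together. The contrast of phases, 0.31, ran from 0.22 to 0.40 with 1 sample left out and was 0.00884 with the clock covariate; the clock level did not overlap between the groups, so group and clock cannot be told apart in that fit. Moving Ccna2 and Top2a to G1/S gave a contrast of 0.25, and leaving out Ccnd1 0.29. Moderation with trend cannot change a contrast of means and was not run for it. The signs of Ccne1, Cdc20, Cdkn3, Mcm7, Wee1, Cks2, Tk1, Mybl2 and Ndc80 held under every alternative that kept the gene. With the replicate number as a block the 4 members at an unadjusted p under 0.05 became 5, the 5 other genes 6, and 0 passed adjustment; the deviations of same-numbered arrays correlated by -0.25, 0.46, -0.09 and 0.07, and 1 of 4 rilpivirine and 1 of 4 control arrays correlated best with its own number, so the numbers are not taken as pairs.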

Other observations

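Brakes of the cell cycle were measured as well. Of 7 CDK inhibitors 2 had a higher and 5 a lower mean with rilpivirine (median -0.03), and 0 had an unadjusted p under 0.05 in limma. Cdkn1a, which encodes the inhibitor p21, measured 5.50, 5.32, 5.99 and 7.23 log2 in rilpivirine replicates 1 to 4 and 6.21, 5.63, 6.08 and 6.26 in controls. Rilpivirine replicate 4 was the highest of the 8 arrays and replicate 2 the lowest; the difference of -0.03 ± 0.35 (SE) was 0.20 without replicate 2 and -0.44 without replicate 4. Cdkn1b, the inhibitor p27, differed by -0.24, Cdkn2a by 0.12 and Cdkn2d by -0.13.

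Of 7 tested genes listed under p53 and its targets 2 were higher and 5 lower (median -0.15). Without rilpivirine replicate 2, 5 of them were higher (median 0.09). Ccng1 differed by -0.31 ± 0.45 (SE), Zmat3 by -0.40 ± 0.21 and Gadd45b by -0.19 ± 0.12, and 0 of the 7 had an unadjusted p under 0.05. The mean level of these genes was 0.34 on rilpivirine replicate 4 and -0.51 on replicate 2, against -0.11 to 0.30 in controls.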
